A study of Columba livia with 6 samples.

Results

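The genes of the vascular smooth muscle contraction pathway were examined in pigeon (Columba livia) ovaries of high (HP) and low (LP) egg production. Members were the loci annotated to this KEGG pathway, together with loci named MYH11 or ACTG2. Loci that are also listed under oocyte meiosis, progesterone-mediated oocyte maturation or glycerophospholipid metabolism, and the genes NPPC and NPR2, were left out. This gave 80 of 34346 loci, of which 78 carry the pathway and 2 came in through the name MYH11. Of the 137 loci with the pathway or the names, 57 were left out in this way. The rule uses annotation alone and no expression value, but members were chosen with earlier results of these data known.

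RNA was sequenced from 1 ovary of each of 3 HP birds (HP1, HP2 and HP3) and 3 LP birds (LP4, LP5 and LP6, numbered as in the labels). All birds were 2 years old, sexually mature, untreated, and came from the same flock, genetic background and hatch batch. The groups are defined by the laying record alone, with no allele or agent. Each ovary is a separate bird, so the spread within a group is the spread between birds, and a whole ovary mixes all its cell types. The counts per ovary summed to between 97875183 and 108669967. On the leading axes of variation over all loci, HP2, LP4 and LP5 stood apart from the other ovaries. The oocyte genes GDF9, BMP15 and NOBOX had counts in every ovary.

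Smooth muscle shortens when myosin heads pull on actin filaments. Agonists such as endothelin or noradrenaline act through G protein-coupled receptors on phospholipase C, calcium enters through L-type channels, and calcium with calmodulin switches on myosin light chain kinase. The kinase phosphorylates the regulatory light chain, myosin phosphatase removes the phosphate, protein kinase C holds the phosphatase back, and cyclic GMP relaxes the cell. In the ovary, smooth muscle lies in the walls of blood vessels and in the theca externa and stalk of follicles, where it takes part in ovulation in birds.

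The members were grouped by role: 7 loci of contractile proteins, 8 of ligands and precursors, 14 of receptors, 10 of G proteins and their effectors, 8 of phospholipases and protein kinase C, 11 of light chain kinases and phosphatase, 11 of ion channels, 6 of the cyclic nucleotide branch and 5 others. Levels are CPM, read counts scaled to a common library size with TMM factors, and are compared between ovaries. Sums over a list weight its most abundant loci. Fold changes are log2 values of HP over LP, with their standard error (SE), from edgeR's quasi-likelihood test. Of the 80 members, 74 passed a mean FPKM of at least 0.1 and were tested.

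The clearest pattern lay in the contractile proteins, and the same ovaries stood at its extremes throughout. All 7 contractile loci had a fitted fold change below 0, against 51.0% of all tested loci. LP5 was the highest of the 6 ovaries at 7 of 7 loci, where it was the highest at 19.1% of all tested loci. HP2 was the lowest at 7 of 7, against 17.5% of all tested loci. LP6, in contrast, lay inside the HP range at 6 of the 7. Among the 7 is a short plus-strand locus inside MYH11 whose reads cannot be told apart from those of MYH11. Without this locus, all 6 loci were below 0, with LP5 highest and HP2 lowest at 6 of 6.

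No member passed an adjusted p of 0.05 in edgeR, where 3 of 28274 loci did (0.0106%), and the adjusted p of the 74 members lay between 0.549 and 0.990. At an unadjusted p under 0.05, 4 members were higher in HP, where 4.74% of all tested loci were, and 6 were lower, where 3.5% of all tested loci were. DESeq2 gave 4 higher (background 5.76%) and 10 lower (background 4.42%) at that limit, and 2 at an adjusted p under 0.05 (background 1.38%). The HP and LP values did not overlap at 5 members that were higher in HP, against 7.38% of all tested loci, and at 8 that were lower, against 7.17%. For a single value, the smallest two-sided p that an exact permutation test allows with 3 ovaries a group is 0.1. Leaving out single ovaries moved the count of lower members to 2 without LP5 (background 2.67%), 3 without HP2 (background 2.31%) and 16 without LP6 (background 3.76%).

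The contractile proteins are described first, and each of their loci had counts in every ovary. Their place in the list follows from annotation and names, so it is no check of smooth muscle identity. ACTA2 is the smooth muscle alpha actin of vessel walls, and it lies on the minus strand of scaffold NW_004973281.1, positions 157422 to 197642 of Cliv_1.0. It had 252, 177 and 231 CPM in HP1, HP2 and HP3, against 440.0, 633 and 179 CPM in LP4, LP5 and LP6. LP4 and LP5 were above all HP ovaries, while LP6 was level with HP2. The fitted change was -0.92 (SE 0.43, edgeR adjusted p = 0.615).

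ACTG2, the gamma actin of visceral smooth muscle, lies on the plus strand of scaffold NW_004973348.1, positions 257451 to 260697. It had 125, 33.7 and 87.3 CPM in the HP ovaries and 181, 681 and 68.5 CPM in LP4, LP5 and LP6. It was the most variable contractile locus, with 20.2 times as much in LP5 as in HP2, and LP6 was below HP1 and HP3. Its fitted change was -1.92 (SE 0.87, edgeR adjusted p = 0.612), the lowest of all members.

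MYH11 encodes the smooth muscle myosin heavy chain, the motor of these cells. The locus, on the minus strand of scaffold NW_004973488.1 between 4310283 and 4368048, had 333, 188 and 471 CPM in the HP ovaries. The LP ovaries had 629, 1221 and 198 CPM. HP2 and LP6 were nearly equal and LP5 stood far above the rest, so that the groups overlapped (log2 fold change -1.05, SE 0.64, edgeR adjusted p = 0.689).

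A short locus of 1 transcript on the plus strand inside MYH11 (4358573 to 4359530) carries the same name, with no protein description. It had 1.35, 0.83 and 1.52 CPM in the HP ovaries and 1.67, 3.92 and 1.26 CPM in the LP ovaries. Its counts were between 0.266% and 0.635% of those of MYH11. It ran in the same order of extremes as MYH11, with LP5 highest and HP2 lowest. Whether the counting used strand is not given in the sources used here, so reads of the pair cannot be told apart.

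MYL9 encodes the regulatory light chain whose phosphorylation starts contraction. It had 197, 142 and 215 CPM in the HP ovaries and 263, 421 and 219.9 CPM in the LP ovaries. It was the only contractile locus without overlap, and by a narrow gap between HP3 and LP6. The log2 fold change was -0.71 (SE 0.28, edgeR adjusted p = 0.595).

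MYL6, the essential light chain, had 53.5, 40.2 and 41.5 CPM in HP1, HP2 and HP3, against 67.7, 89.6 and 52.6 CPM in LP4, LP5 and LP6. LP6 lay just below HP1, and the other LP ovaries were above all HP ovaries (log2 fold change -0.64, SE 0.22, edgeR adjusted p = 0.584). CALD1 encodes caldesmon, which binds actin and restrains the myosin ATPase. It had 125, 78.2 and 108 CPM in the HP ovaries and 162, 174 and 115 CPM in the LP ovaries. Again LP6 lay inside the HP range (log2 fold change -0.53, SE 0.22, edgeR adjusted p = 0.604).

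**Figure D1:**
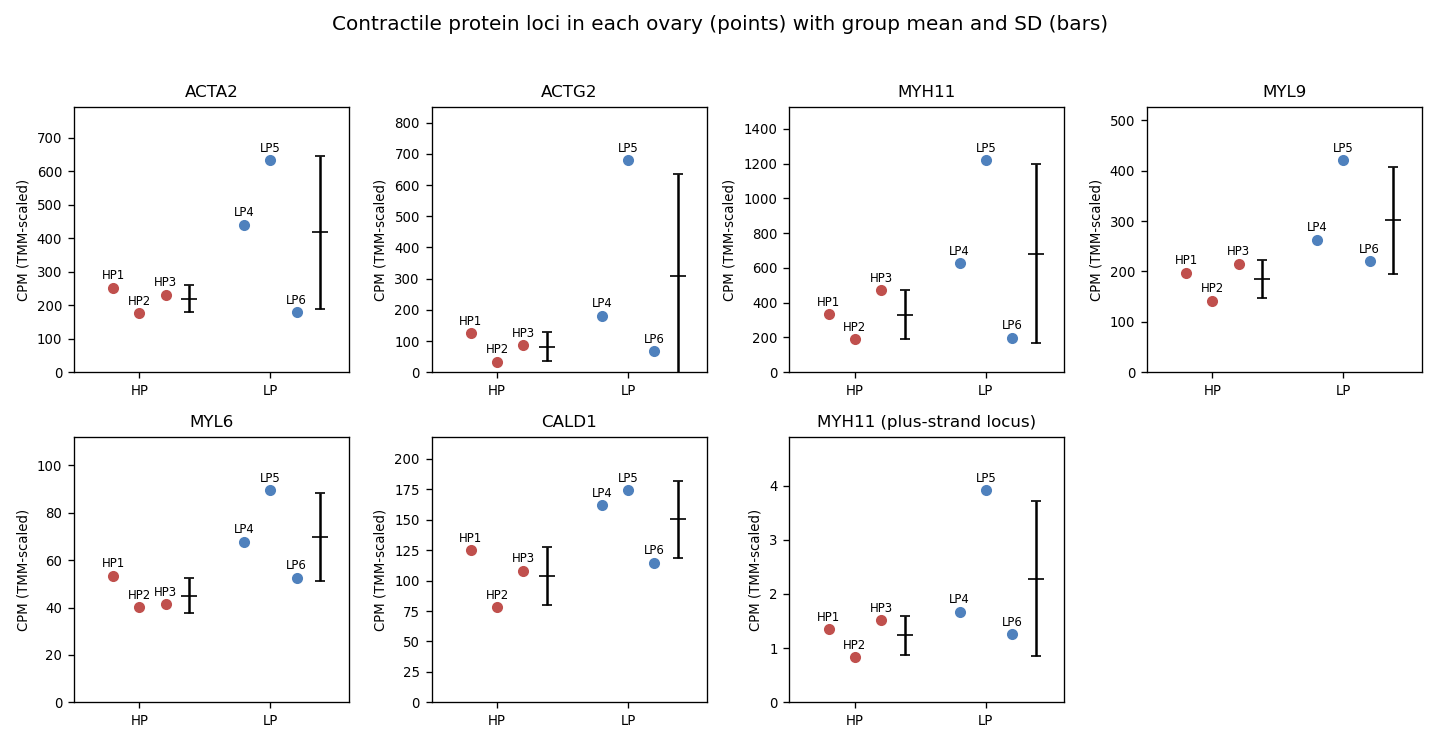
CPM of the 7 contractile protein loci in each ovary (points, HP in red on the left and LP in blue on the right), with the group mean and SD as black bars, the lower bar of ACTG2 in LP ending at the axis. LP5 is the highest and HP2 the lowest point in every panel, and LP6 lies near the HP ovaries.

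The 7 contractile loci had a median log2 fold change of -0.88, against -0.0078 over all tested loci, and 2 of them (MYL9 and MYL6) were lower in HP at an unadjusted p under 0.05, where 3.5% of all tested loci were. DESeq2 gave 4 (ACTA2, CALD1, MYL6 and MYL9, background 4.42%), and limma on log2(FPKM + 1) gave 1 (MYL6, background 2.79%). Without the plus-strand MYH11 locus, an alternative added after seeing the data, the median was -0.81. The sum of their CPM was 1087 in HP1, 659.7 in HP2 and 1156 in HP3, against 1745, 3223 and 834 in LP4, LP5 and LP6. LP6 was below HP1 and HP3 in this sum. In bulk ovaries, fewer cells that express these loci, of whatever type, and less RNA per cell cannot be told apart.

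Single ovaries set the size of the difference. The median was -0.41 without LP5, -0.67 without HP2 and -1.18 without LP6. Without LP5 (background 2.67%) or without HP2 (background 2.31%), 0 of the 7 loci were lower in HP at an unadjusted p under 0.05 in edgeR. Without LP6 there were 6 (background 3.76%). The fold change of ACTG2 was -0.61 without LP5, and that of MYH11 was -0.32. All 7 fold changes stayed below 0 with any ovary left out.

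**Figure D2:**
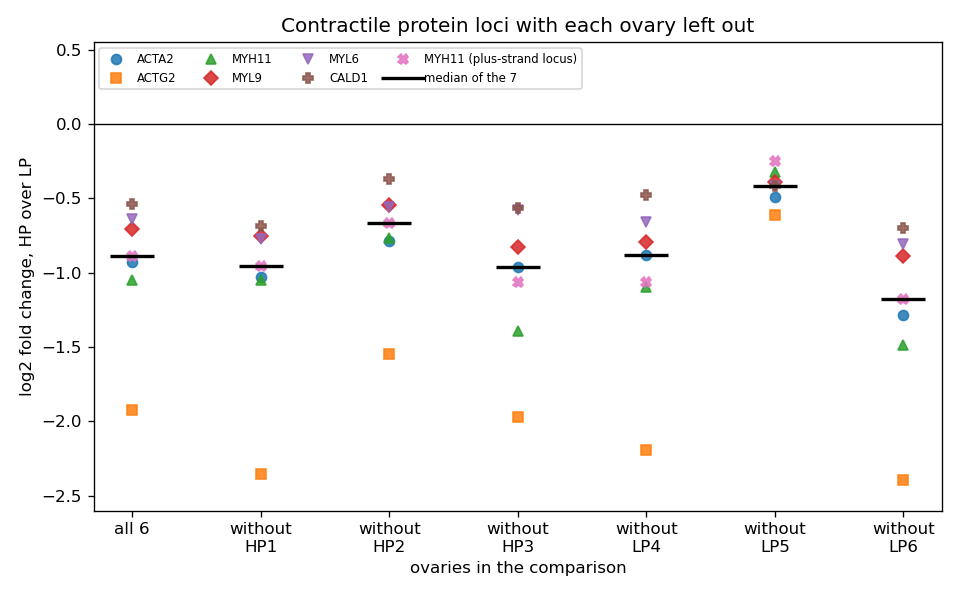
Log2 fold change, HP over LP, of each contractile locus (symbols) and their median (black bars) with all 6 ovaries and with each ovary left out. Every symbol is below 0, and the median lies closest to 0 without LP5, at -0.41.

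Other smooth muscle genes that the pathway does not list showed the same ovaries at the extremes. Of 18 such genes, 16 are listed and were tested (CNN1 and FLNA were not found under those symbols). Their median log2 fold change was -0.55. Of the 16, 15 were below 0 (51.0% of all tested loci), and 7 were lower in HP at an unadjusted p under 0.05 (3.5% of all tested loci). LP5 was highest for 11 of the 16 (19.1% of all tested loci) and HP2 lowest for 9 (17.5%). DES, which encodes the intermediate filament protein desmin, had 166, 76.1 and 112 CPM in the HP ovaries and 408, 694 and 122 CPM in the LP ovaries (log2 fold change -1.79, SE 0.61, edgeR adjusted p = 0.584). LMOD1, a leiomodin that nucleates actin filaments, did not overlap between the groups, with 29.9, 40.3 and 50.1 CPM in HP ovaries and 76.4, 107 and 51.3 CPM in LP ovaries. TPM2, a tropomyosin, did not overlap either, with 197, 176 and 177 CPM in HP ovaries and 265, 317 and 228 CPM in LP ovaries (log2 fold change -0.56, SE 0.14, edgeR adjusted p = 0.562). The transcription coactivator of smooth muscle genes, MYOCD, had a log2 fold change of -0.55 (SE 0.28, edgeR adjusted p = 0.646).

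Stroma, pericyte and endothelial markers ran in the same direction as the contractile loci. The 6 fibroblast and stroma genes summed to between 1447 and 2458 CPM in HP ovaries and between 2558 and 3178 CPM in LP ovaries. These sums did not overlap between the groups, while those of the contractile loci did. HP2 had the lowest stroma sum and LP5 the highest. All 6 genes were below 0 (51.0% of all tested loci) and 4 were lower at an unadjusted p under 0.05 (3.5%). LP5 was highest for 5 of the 6 (19.1%) and HP2 lowest for 4 (17.5%). The sum of the 5 listed pericyte genes ranged from 645 to 883 CPM in HP and from 735 to 1052 CPM in LP. All 5 were below 0 (51.0% of all tested loci) and 2 were lower at an unadjusted p under 0.05 (3.5%). LP5 was highest for 4 of the 5 (19.1%) and HP2 lowest for 2 (17.5%). The 6 endothelial genes summed to between 422 and 516 CPM in HP and between 442 and 676 CPM in LP. All 6 were below 0, with 0 at an unadjusted p under 0.05. LP5 was highest for 5 of the 6 and HP2 lowest for 3. Kidney genes, 6 of 8 listed, summed to 590.4 CPM in HP2 and to between 72.0 and 113 CPM in the other ovaries. Chromaffin and nerve genes, 5 of 5 listed, summed to 194 CPM in HP3 and to between 74.3 and 120 CPM in the others. Granulosa genes, 4 of 5 listed, summed to 350 CPM in HP1 and to between 594 and 838 CPM in the others. The part of these lists in the result was not tested. The heart muscle markers MYH6, MYH7 and NPPA were not found under those symbols, and the other 2 summed to at most 1.06 CPM. Skeletal muscle markers, 4 of 6 listed, summed to between 33.2 and 41.5 CPM in HP and between 38.1 and 71.7 CPM in LP. Most of this sum was ACTA1, which was highest in LP5 at 70.0 CPM. The other listed markers did not follow it. TNNI2 was lowest in LP5 at 1.38 CPM, TNNT3 was highest in LP4 and MYL1 in HP2.

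**Figure D3:**
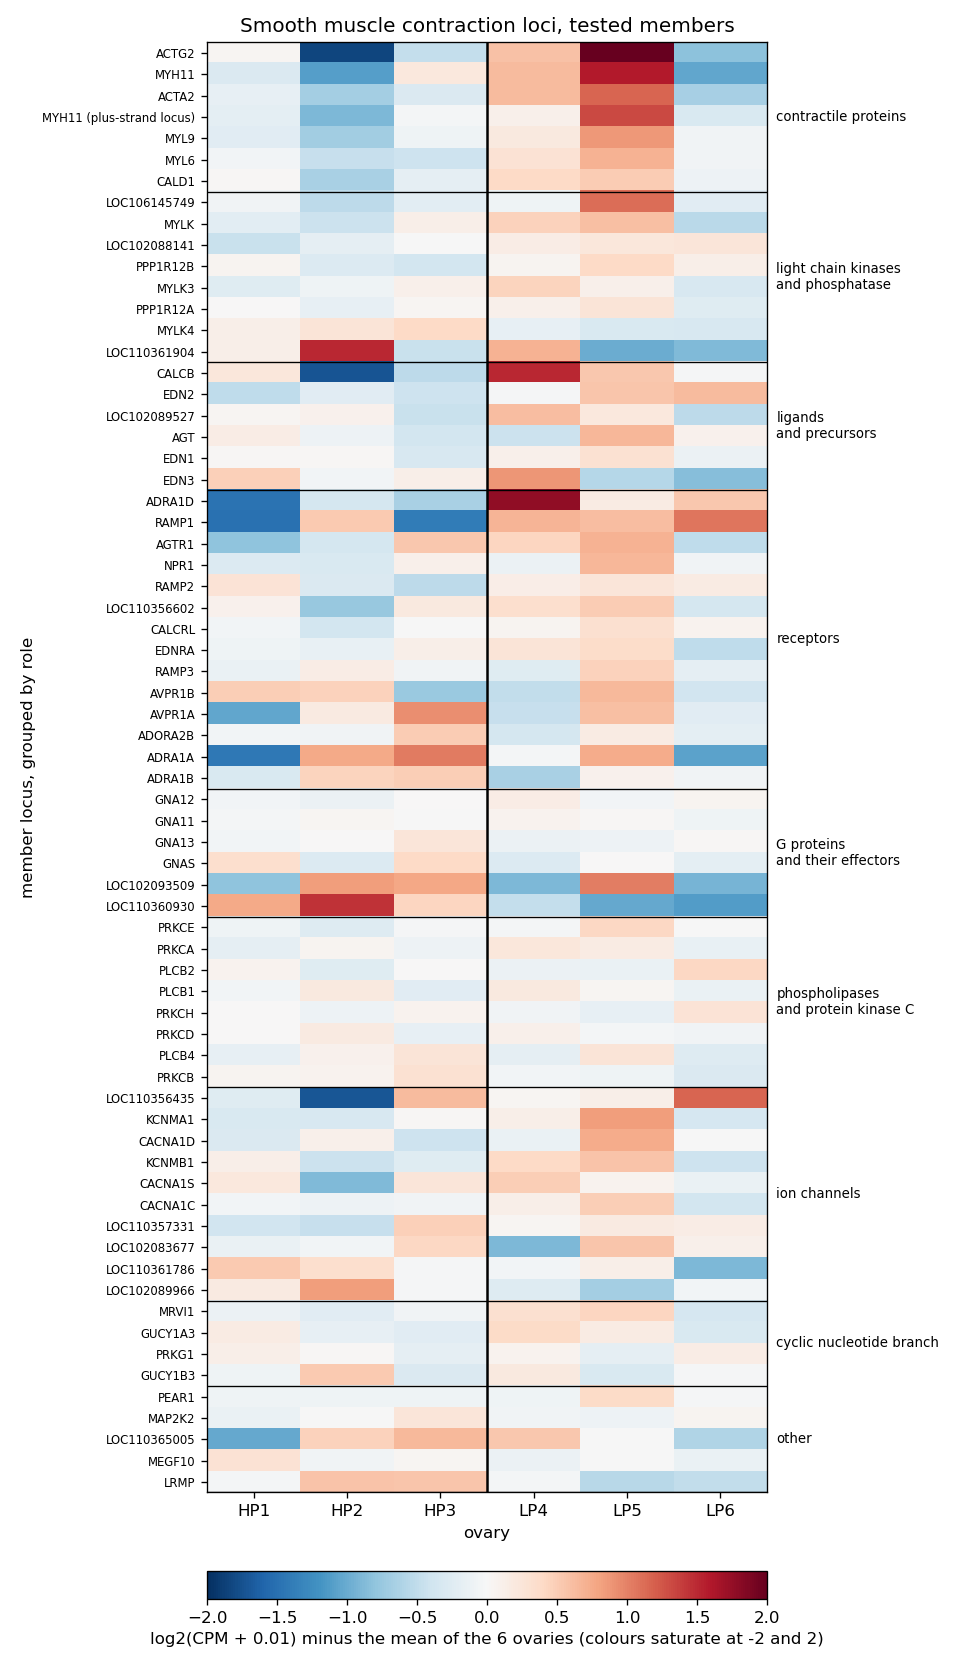
Log2 CPM of 68 of the 74 tested members in each ovary (columns, HP left of the line and LP right of it), relative to the mean of the 6 ovaries and grouped by role (rows). The contractile rows share a pattern of high LP5 and low HP2, while the signalling rows differ less and in mixed directions.

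Outside the contractile proteins the pathway was mixed, with more members below 0 than above. The other 67 tested members had a median log2 fold change of -0.12, against -0.0078 over all tested loci. Of them, 42 were below 0 and 25 above, where 51.0% of all tested loci were below 0. At an unadjusted p under 0.05, 4 were higher and 4 lower, where 4.74% and 3.5% of all tested loci were, so these shares were near the background. LP5 was the highest ovary for 22 of these 67 (19.1% of all tested loci), and LP6 the lowest for 21 (15.8%).

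The ligands are peptides and their precursors. Of 6 tested loci, 5 were below 0 (51.0% of all tested loci) and the median was -0.27. Only EDN2 was lower at an unadjusted p under 0.05 (3.5% of all tested loci). EDN2 encodes endothelin-2, a peptide that contracts smooth muscle and is induced at ovulation in rodent follicles. It had 9.34, 11.3 and 9.93 CPM in HP1, HP2 and HP3, against 13.1, 19.4 and 20.5 CPM in LP4, LP5 and LP6. The groups did not overlap and LP6 was the highest ovary, unlike in the contractile loci (log2 fold change -0.79, SE 0.22, edgeR adjusted p = 0.572). The unadjusted p stayed under 0.05 with any ovary left out.

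EDN1, the endothelin of vessel endothelium, had 9.17, 9.15 and 7.23 CPM in HP ovaries and 9.68, 11.1 and 8.31 CPM in LP ovaries, with overlap. EDN3 had between 3.27 and 4.72 CPM in HP and between 1.86 and 6.24 CPM in LP. Neither endothelin had a p under 0.05, and both were named after their values were seen. CALCB, which encodes a calcitonin gene-related peptide, a vasodilator, had 22.2, 5.75 and 13.1 CPM in HP ovaries and 53.9, 27.5 and 18.6 CPM in LP ovaries. LP4 was highest and HP2 lowest, and HP1 lay above LP6 (log2 fold change -1.28, SE 0.57, edgeR adjusted p = 0.611). The fold change was -0.75 without LP4 and -1.82 without HP1, and the unadjusted p was under 0.05 in DESeq2 and, in edgeR, without HP1 or without LP6.

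Among the 14 receptors the median log2 fold change was -0.20, with 9 below 0 (51.0% of all tested loci). ADRA1D, an alpha-1 adrenoceptor that answers noradrenaline with contraction, was the only receptor at an unadjusted p under 0.05 in edgeR (lower, background 3.5%). It had 0.99, 2.19 and 1.77 CPM in the HP ovaries and 9.57, 3.14 and 4.03 CPM in the LP ovaries. Every LP ovary was above every HP ovary, with LP4 far above the rest. The log2 fold change was -1.76 (SE 0.51) and -1.12 without LP4, with an unadjusted p under 0.05 whichever ovary was left out. Its adjusted p was 0.573 in edgeR and 0.0496 in DESeq2, with a range of 0.0496 to 0.902 over 12 alternatives.

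The other alpha-1 adrenoceptors had fitted changes above 0. ADRA1B had 10.3, 17.4 and 18.1 CPM in HP ovaries and 8.20, 13.5 and 12.3 CPM in LP ovaries, with overlap (log2 fold change 0.43, SE 0.29, edgeR adjusted p = 0.717). ADRA1A, named after its values were seen, had a log2 fold change of 0.40 (SE 0.70, edgeR adjusted p = 0.900), and between -0.014 and 0.93 with an ovary left out. The difference in direction between these receptors was not tested.

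The receptor of calcitonin gene-related peptide is built from CALCRL and the accessory protein RAMP1. Both were named after their values were seen because HP lay below LP without overlap, as at 7.17% of all tested loci. They were picked for this, so the separation is no further result. CALCRL had 86.2, 69.2 and 89.5 CPM in HP ovaries and 92.5, 112 and 93.6 CPM in LP ovaries (log2 fold change -0.28, SE 0.14, edgeR adjusted p = 0.637). RAMP1 had 2.87, 11.6 and 3.06 CPM in HP ovaries and 12.98, 12.4 and 16.9 CPM in LP ovaries (log2 fold change -1.28, SE 0.57, edgeR adjusted p = 0.611). HP2 was close to the LP ovaries and well above HP1 and HP3. RAMP1 had an unadjusted p under 0.05 in DESeq2, in limma and, in edgeR, without HP2, where its log2 fold change was -2.25. RAMP2 and RAMP3, which make CALCRL a receptor of adrenomedullin, had log2 fold changes of -0.32 and -0.063 with overlap. The endothelin receptor EDNRA (-0.12) and the angiotensin receptor AGTR1 (-0.39) had adjusted p of 0.913 and 0.826 in edgeR.

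G proteins carry the signal inward, and this list held the highest fold change of all members. The locus LOC110360930, described as a G(q) subunit alpha-like protein, lies on the plus strand of scaffold NW_004973365.1 between 1734626 and 1803495. G(q) links receptors to phospholipase C. At an unadjusted p under 0.05 it was the only locus of its list (higher in HP, background 4.74%). It had 18.8, 30.2 and 15.0 CPM in HP1, HP2 and HP3, against 7.94, 5.43 and 5.09 CPM in LP4, LP5 and LP6. Every HP ovary was above every LP ovary, and the fold of HP over LP was 3.46 (log2 fold change 1.79, SE 0.32). The log2 fold change stayed between 1.46 and 2.02, with an unadjusted p under 0.05, whichever ovary was left out. The adjusted p was 0.549 in edgeR and 3.65e-05 in DESeq2, with a range of 3.65e-05 to 0.829 over 12 alternatives.

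A second G(q) alpha locus, LOC102093509, was named after its values were seen. It had 10.4, 32.7 and 31.1 CPM in HP ovaries and 9.79, 36.9 and 9.605 CPM in LP ovaries, splitting each group (log2 fold change 0.40, SE 0.66). The fold change lay between 0.083 without LP6 and 1.35 without LP5, where it was higher in HP at an unadjusted p under 0.05. How alike the 2 loci are, and whether they share reads, was not tested. GNAS, the stimulatory alpha subunit that raises cyclic AMP, had 84.4, 55.2 and 87.4 CPM in HP ovaries and 54.7, 66.6 and 58.2 CPM in LP ovaries (log2 fold change 0.34, SE 0.19, edgeR adjusted p = 0.670). HP2 lay with the LP ovaries.

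Other G protein subunits varied little. GNA11 had a log2 fold change of -0.0069, GNA12 of -0.10 and GNA13 of 0.14. These subunits were named after their values were seen.

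Phospholipase C releases calcium from stores, and protein kinase C restrains the phosphatase. The 8 loci had a median log2 fold change of -0.041. PRKCB, a calcium-dependent protein kinase C, was the only 1 of the 8 at an unadjusted p under 0.05 (higher in HP, background 4.74%). It had 108.5, 109.5 and 129 CPM in HP ovaries and 100.2, 98.35 and 85.6 CPM in LP ovaries. The groups did not overlap, but the difference was small (log2 fold change 0.29, SE 0.12, edgeR adjusted p = 0.597). The unadjusted p was no longer under 0.05 whichever ovary was left out, nor in DESeq2 or limma. PLCB2, whose locus is merged with another reading frame, had 160.4, 129.97 and 154 CPM in HP ovaries and 141, 141 and 205 CPM in LP ovaries, with overlap.

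The kinases and the phosphatase that set the phosphorylation of the light chain had a median log2 fold change of -0.14 over 10 tested loci. MYLK, the smooth muscle light chain kinase, had 294, 254 and 369 CPM in HP ovaries and 472, 517 and 236 CPM in LP ovaries. LP4 and LP5 were highest and LP6 lowest (log2 fold change -0.42, SE 0.30, edgeR adjusted p = 0.735). A separate locus described as a partial smooth muscle light chain kinase, LOC102088141, had 32.9, 39.7 and 44.5 CPM in HP ovaries and 49.7, 52.4 and 52.7 CPM in LP ovaries. Here LP6 was highest, the groups did not overlap and the unadjusted p was under 0.05 (log2 fold change -0.40, SE 0.14, edgeR adjusted p = 0.584). The unadjusted p was no longer under 0.05 without HP1, HP2, LP5 or LP6, or in limma. Whether the 2 loci belong to 1 gene was not tested.

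MYLK4, another kinase of this family, ran the other way and was higher in HP at an unadjusted p under 0.05, with 6.56, 7.23 and 7.95 CPM in HP ovaries and 5.37, 4.90 and 4.85 CPM in LP ovaries (log2 fold change 0.52, SE 0.18, edgeR adjusted p = 0.584). The groups did not overlap, and the unadjusted p was no longer under 0.05 without HP2, HP3, LP5 or LP6. LOC110361904, described as MYLK4-like, had 0.27, 0.73 and 0.18 CPM in HP ovaries and 0.41, 0.12 and 0.13 CPM in LP ovaries, with HP2 highest and LP4 above HP1 and HP3 (log2 fold change 0.84, SE 0.76, edgeR adjusted p = 0.787). Its fold change was 0.038 without HP2 and 1.65 without LP4. PPP1R12B, a targeting subunit of myosin phosphatase, had 45.3, 36.3 and 34.0 CPM in HP ovaries and 45.6, 57.8 and 47.7 CPM in LP ovaries. HP1 and LP4 were nearly equal, and the unadjusted p was under 0.05, though not without HP2, HP3, LP5 or LP6 or in limma (log2 fold change -0.39, SE 0.16, edgeR adjusted p = 0.601). PPP1R12A, another targeting subunit, had a log2 fold change of -0.099 and overlapped.

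**Figure D4:**
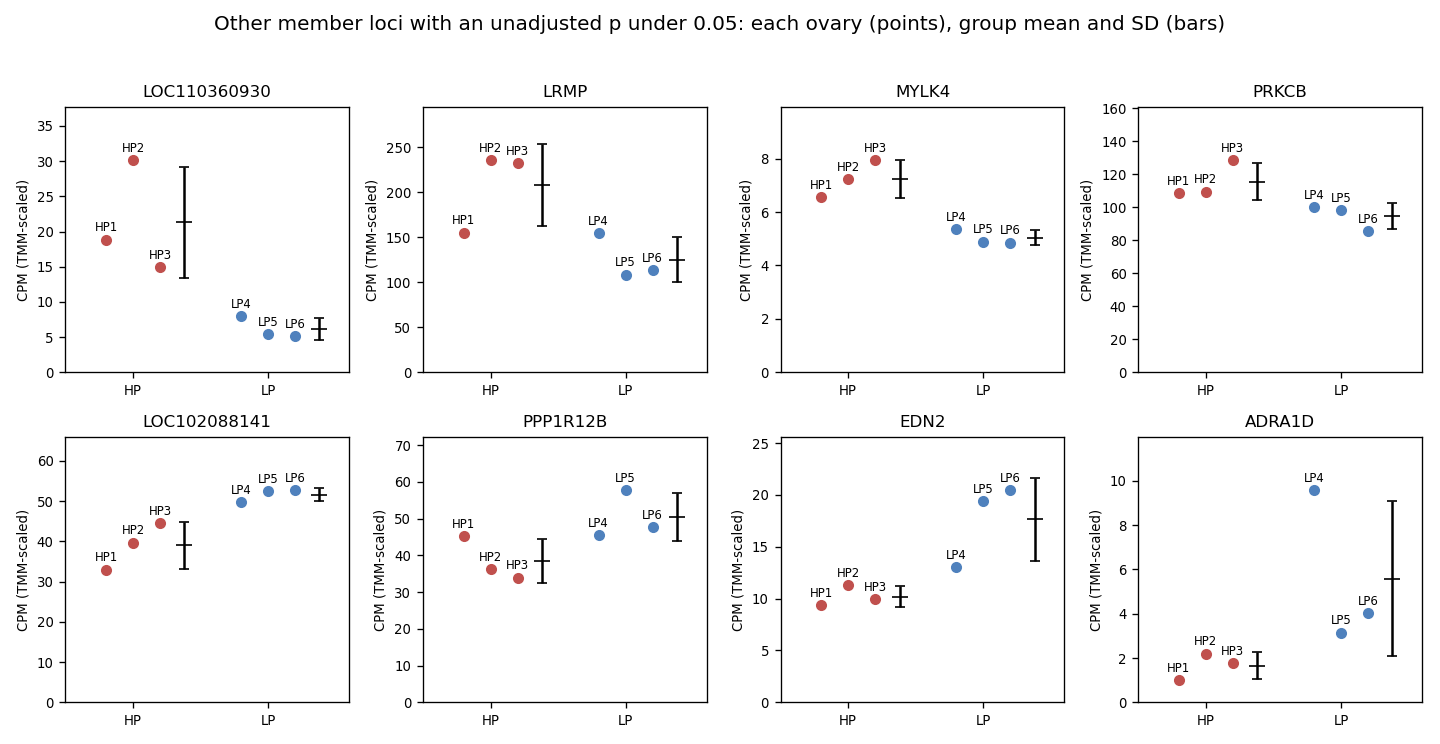
CPM in each ovary (points, HP in red on the left and LP in blue on the right) of the 8 members outside the contractile list with an unadjusted p under 0.05, with group mean and SD as black bars. The upper row is higher in HP and the lower row lower in HP, and no panel has overlapping groups, although the gap is narrow for LRMP (155 CPM in HP1 and 154 CPM in LP4) and PPP1R12B (45.3 CPM in HP1 and 45.6 CPM in LP4).

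Of the ion channels, 10 loci were tested, and the median log2 fold change was -0.21. In edgeR, 0 had an unadjusted p under 0.05 (background 4.74% higher and 3.5% lower). In DESeq2, 1 did (LOC102089966, higher in HP, background 5.76%). CACNA1C, the pore of the L-type calcium channel, had 392, 378 and 386 CPM in HP ovaries and 442, 569.8 and 314 CPM in LP ovaries. The HP ovaries were close to each other, and LP5 and LP6 lay on either side of them (log2 fold change -0.20, SE 0.21, edgeR adjusted p = 0.821). The mean FPKM of this locus was 1856, against 339 for ACTA2 and 332 for MYH11. It overlaps 5 other loci, 4 of them on the opposite strand. Whether its level is that of the channel alone was not tested. KCNMA1, the calcium-activated potassium channel that counters contraction, and its smooth muscle subunit KCNMB1, both named after their values were seen, were highest in LP5 with log2 fold changes of -0.48 and -0.41. LOC102089966 is described as a partial L-type channel subunit alpha-1D-like protein. It had 9.76, 15.3 and 8.52 CPM in HP ovaries and 7.17, 5.37 and 8.32 CPM in LP ovaries. The gap between HP3 and LP6 was narrow (log2 fold change 0.69, SE 0.29, edgeR adjusted p = 0.605). The unadjusted p of this locus was under 0.05 in DESeq2 and in limma.

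The cyclic nucleotide branch, which relaxes smooth muscle, had 4 tested loci and a median log2 fold change of -0.10. None had an unadjusted p under 0.05 in edgeR (background 4.74% higher and 3.5% lower) or DESeq2 (background 5.76% and 4.42%). GUCY1B3, a subunit of the nitric oxide receptor guanylate cyclase, had 95.4, 146 and 82.7 CPM in HP ovaries and 116, 82.1 and 99.8 CPM in LP ovaries. HP2 was highest and the groups overlapped. Its locus is merged with that of TDO2, an enzyme of tryptophan breakdown, so the level is not that of the cyclase alone. PRKG1, the cyclic GMP-dependent kinase, had a log2 fold change of -0.025.

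Of the 5 other members, LRMP was the only 1 at an unadjusted p under 0.05 (higher in HP, background 4.74%). LRMP, described as a lymphoid-restricted membrane protein, shares the orthology entry of MRVI1, a partner of the cyclic GMP-dependent kinase at calcium stores. It had 155, 236 and 232 CPM in HP ovaries and 154, 108 and 113 CPM in LP ovaries. HP1 and LP4 were almost equal and the rest well apart (log2 fold change 0.73, SE 0.21, edgeR adjusted p = 0.573). The unadjusted p stayed under 0.05 whichever ovary was left out. MRVI1 itself had a log2 fold change of -0.31 (SE 0.20, edgeR adjusted p = 0.709), and the difference between the pair was not tested. MEGF10 and PEAR1 share an orthology entry with another member but are described as other proteins.

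**Figure D5:**
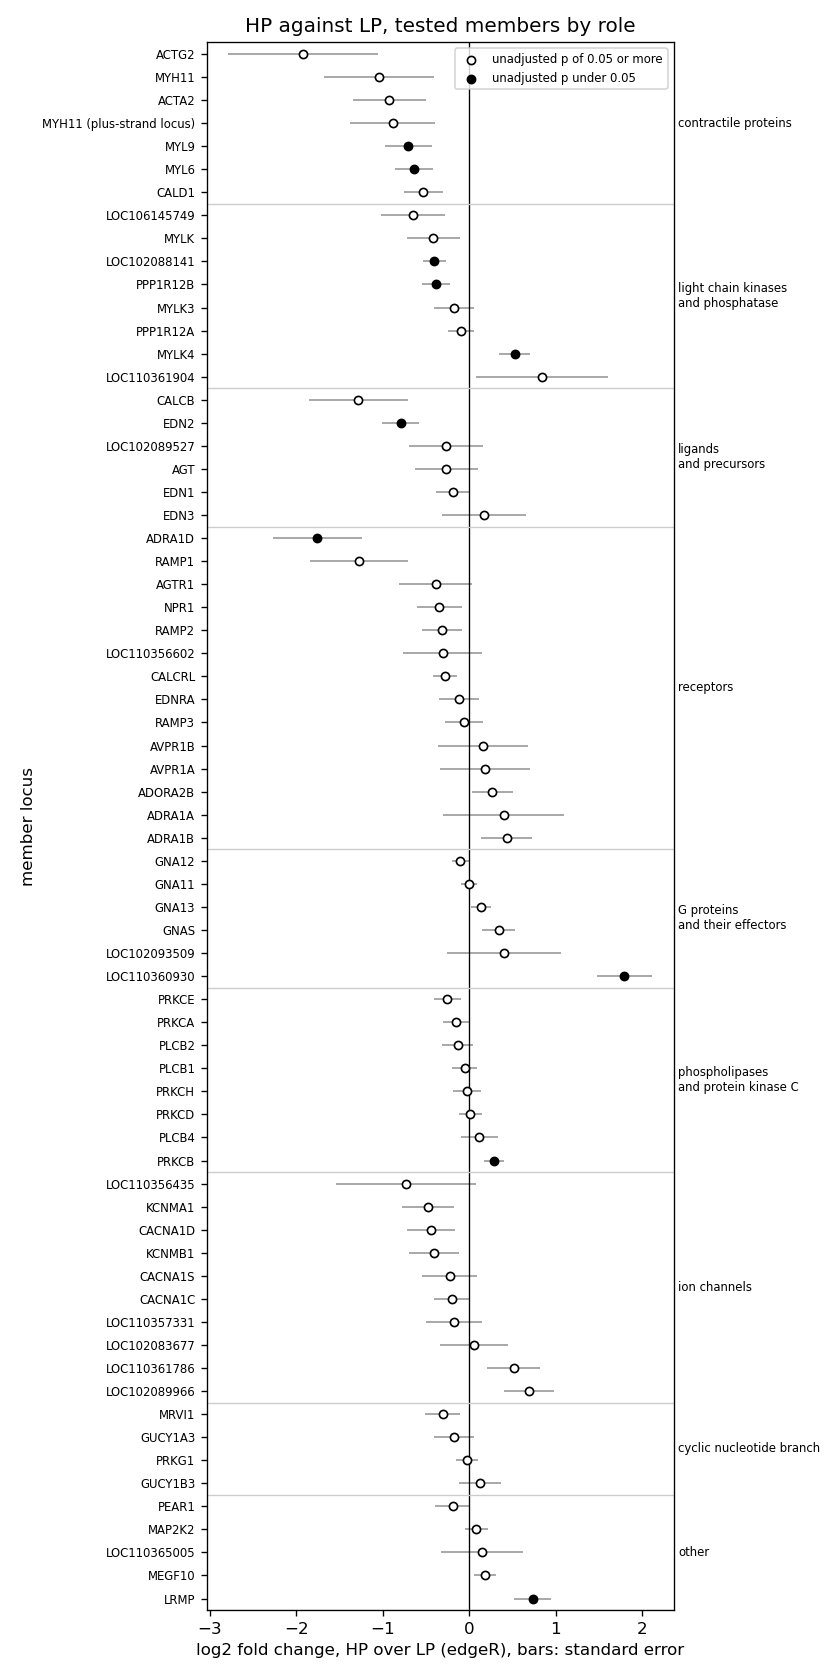
Log2 fold change, HP over LP, of 68 of the 74 tested members by role (points), with standard errors (bars), filled where the unadjusted p is under 0.05. The 7 contractile loci all lie left of 0, between -1.92 and -0.53, and the other roles lie on both sides.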

How the data were processed

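Total RNA of 6 ovaries was depleted of ribosomal RNA and sequenced as stranded libraries. The authors trimmed reads with cutadapt 1.9, checked them with FastQC 0.10.1, aligned them with Bowtie2 and HISAT2 2.0.4 (genome build Cliv_1.0), and assembled and quantified loci with StringTie 1.3.4 and Ballgown. The labels also name edgeR. The table the authors deposited gives, for each locus, unnormalized whole counts and FPKM. Of its value columns, 0 were left out. How the counts were made is not given in the sources used here. FPKM served for the filter, for limma and for choosing the named member with the highest mean FPKM in each other role. It was also used to set the level of CACNA1C beside those of ACTA2 and MYH11.

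Counts of 28274 loci that reached an average FPKM of 0.1 (6072 did not) were compared between 3 HP and 3 LP ovaries with edgeR 4.0.16 (R 4.3.3, TMM, quasi-likelihood, two-sided, no covariates), with Benjamini-Hochberg adjustment over these loci. Alternatives were RLE scaling, DESeq2 1.42.0, limma 3.58.1 on log2(FPKM + 1) and log2(FPKM + 0.1), no filter, a filter of 1, and each ovary left out. The fits were tested on simulated data.

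Members, lists and tests were chosen with earlier results of these data known. The text names every tested contractile locus, every member with an unadjusted p under 0.05, the 3 members with the largest change in each direction, and the member with the highest mean FPKM in each other role. Of the members, 22 were put in a role by their description after the table was seen. Of 80 members, 47 overlap another locus, 23 have LOC symbols only, and 68 matched a RefSeq table of another build (bColLiv1.pat.W.v2), which was used for names alone and gave 6 symbols. Counting error is small for most members, and 3 ovaries a group set the precision. The values of 6 tested members are not reported here and are left out of the plots.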

Additional observations from a re-analysis of the deposited data

How the results depend on the processing

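The spread between the 3 ovaries of a group, not depth, limits these comparisons. The ovaries came from separate birds and no pairing of HP with LP birds is given, so the groups were compared unpaired. The count of members lower in HP at an unadjusted p under 0.05 was 6 (background 3.5%), and 10 with DESeq2 (background 4.42%). It was 2 without LP5 (background 2.67%), 3 without HP2 (background 2.31%) and 16 without LP6 (background 3.76%). The count of members higher in HP was 4 with all ovaries (background 4.74%). It lay between 3 and 5 with an ovary left out, for which no share over all loci is given here. The count at an adjusted p under 0.05 was 0 each time, against 2 with DESeq2 (background 1.38%). The median of the contractile loci lay between -1.18 and -0.41 with an ovary left out, and between -0.89 and -0.62 under the other scalings, tests and filters. The median of the other members lay between -0.17 and -0.044 with an ovary left out. Among the loci chosen by the naming rule, the sign changed for GUCY1B3 without HP2 (range with an ovary left out -0.16 to 0.28), CACNA1C without LP5 (-0.39 to 0.027) and PLCB2 without LP6 (-0.23 to 0.071). Of the loci named after their values were seen, EDN3 (-0.13 to 0.91), GNA11 (-0.051 to 0.026), PRKG1 (-0.115 to 0.052), PPP1R12A (-0.23 to 0.017), ADRA1A (-0.014 to 0.93), EDNRA (-0.34 to 0.043) and RAMP3 (-0.19 to 0.198) also changed sign with an ovary left out. An unadjusted p came under 0.05 without LP6 for MYLK, CACNA1C, KCNMA1, KCNMB1, EDNRA and MRVI1, without HP2 for GNAS, without HP1 for ADRA1B and RAMP2, without LP4 for EDN3, and for LOC102089966 without HP3 or without LP6. Of the values of loci chosen by the rule under the alternatives, 221 kept direction and side of the threshold, 33 were no longer past it and 16 came past it. The cause was not tested.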

Other observations

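The 6 members below the filter were at trace levels. KCNMB4, a beta subunit of the calcium-activated potassium channel, had 0.14, 0.23 and 0.33 CPM in HP ovaries and 0.36, 0.42 and 0.54 CPM in LP ovaries. Every LP ovary was above every HP ovary at this very low level, as at 7.17% of all tested loci. The locus was not in the main test, and its adjusted p lay between 0.696 and 0.704 over 2 alternatives. MYLK2, the skeletal muscle light chain kinase, had between 0.10 and 0.16 CPM in HP and between 0 and 0.31 CPM in LP. LOC102087100, described as a vasotocin-neurophysin VT-like precursor, had 4 counts in HP1 and 0 in the other 5 ovaries, and LOC110358424, described as a guanylate cyclase subunit, had 7 counts in HP2, 8 counts in LP4 and 0 in the others. LOC102091284, a guanylate cyclase beta-2-like locus, had between 0.75 and 0.97 CPM in HP and between 0.60 and 1.13 CPM in LP. BNP, a locus named for a natriuretic peptide but described as a hypothetical protein, had between 0.24 and 0.47 CPM in HP and between 0.32 and 0.44 CPM in LP.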
